A study of Mus musculus with 40 samples.

Results

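SMARCA5 peaks that no peak of CTCF, PU.1 or C/EBPb touched were examined in mouse bone marrow-derived macrophages. They were chosen by position: a SMARCA5 consensus peak on chromosomes 1 to 19 or X was taken when it shared 0 bp with every CTCF, PU.1 and C/EBPb consensus peak. This rule picked 5472 of 37054 SMARCA5 peaks, or 14.8%, and they are termed factor-free below. The term says only that no peak of these 3 lists lies on them.

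SMARCA5 is an ATPase of the ISWI family of chromatin remodelling complexes, which slide nucleosomes along DNA and space them evenly. PU.1 and C/EBPb are the transcription factors that open and maintain enhancers in macrophages. CTCF is a zinc-finger protein bound at insulators and at the anchors of chromatin loops, and ISWI remodelling is known to keep nucleosomes in ordered arrays around it.

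The cells were primary macrophages grown from bone marrow, either wild type with Csf1r-Cre or Smarca5-/- (floxed Smarca5 with Csf1r-Cre), both cultured with 4-hydroxytamoxifen every day. Csf1r-Cre is driven by the promoter of the macrophage colony-stimulating factor receptor gene, and the wild-type cells carry it too. SMARCA5 was profiled after digestion with micrococcal nuclease in 8 libraries, 2 for each genotype untreated and 2 for each genotype after 2 h of lipopolysaccharide (LPS) at 10 ng/ml. For each of CTCF, PU.1 and C/EBPb there were 2 wild-type and 2 Smarca5-/- libraries, none of them from LPS-treated cells. The labels do not say whether the 2 libraries of a group came from separate animals. H3K27ac libraries belong to the same series and were not analysed here.

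Each protein has 1 consensus list for the whole series, and 0 value columns name a library. Genotypes and treatments therefore could not be compared, the loss of SMARCA5 in the Smarca5-/- cells could not be checked, and a factor-free peak from LPS-treated cells cannot be told apart from one in untreated cells. Cell type markers could not be checked either, because these lists measure binding and not expression. Peaks are not replicates, so no test was made: the spread given is that over the 20 chromosomes. The lists held 25280 CTCF, 67674 PU.1 and 30895 C/EBPb peaks on these chromosomes, with median widths of 401 bp, 441 bp and 436 bp. Depth per library is unknown.

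The remaining 31582 SMARCA5 peaks held at least 1 factor. Among them, 2995 held CTCF only, 9205 held PU.1 only and 1269 held C/EBPb only. The factor-free peaks covered 11335354 bp, which was 10.1% of the sequence under SMARCA5 peaks and 0.442% of the sequence spanned by the 4 lists. How many peaks are factor-free depends on how far down the factor lists are read. When only the upper 50% by fold enrichment of each factor list was used there were 13335, and with the summit of a factor peak required inside the SMARCA5 peak there were 5989.

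Regions at the edge of the rule are described by position and values. At chr3:103208364-103210106, a factor-free peak of 1743 bp ended 1 bp from a PU.1 peak, with a fold enrichment of 2.03. At chr10:122640202-122640699, a factor-free peak of 498 bp lay 1 bp from a CTCF peak, with a fold enrichment of 1.93. Just outside the rule, the SMARCA5 peak at chr1:135534284-135534839 shared 3 bp with a PU.1 peak and had a fold enrichment of 2.22. At most 100 bp separated 56 factor-free peaks from a factor peak, and they had a median width of 1107 bp and a median −log10 q of 3.07. At most 100 bp were shared with factor peaks by 106 SMARCA5 peaks, which had a median width of 1192 bp and a median −log10 q of 3.18. The median fold enrichments of these sets were 2.03 inside the rule and 2.09 outside it.

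Factor-free peaks were narrow. Their width ran from 262 bp to 16409 bp, with a median of 1665.5 bp and a middle range from 984 bp to 2685 bp. The median was 2725 bp for SMARCA5 peaks with at least 1 factor, and the factor-free median was the lower one on 20 of 20 chromosomes. The chromosome medians of factor-free peaks lay between 1398 bp on X and 1863 bp on chromosome 13, below all those of the other peaks, which lay between 2141.5 bp and 2859 bp. Peaks with CTCF only were narrower still, at a median of 1537 bp, and lay below the factor-free median on 16 of 20 chromosomes. Peaks with PU.1 only had a median of 2392 bp. The rule counts any shared base, so width enters into it directly, and these widths are a description.

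The share of SMARCA5 peaks that were factor-free fell with each step in width. It was 47.1% among the 856 peaks of up to 500 bp, 27.8% between 500 bp and 1000 bp, and 13.3% between 2000 bp and 3000 bp. Above 10000 bp it was 5.31%, or 24 of 452 peaks. Wide factor-free peaks thus existed but were few.

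**Figure D1:**
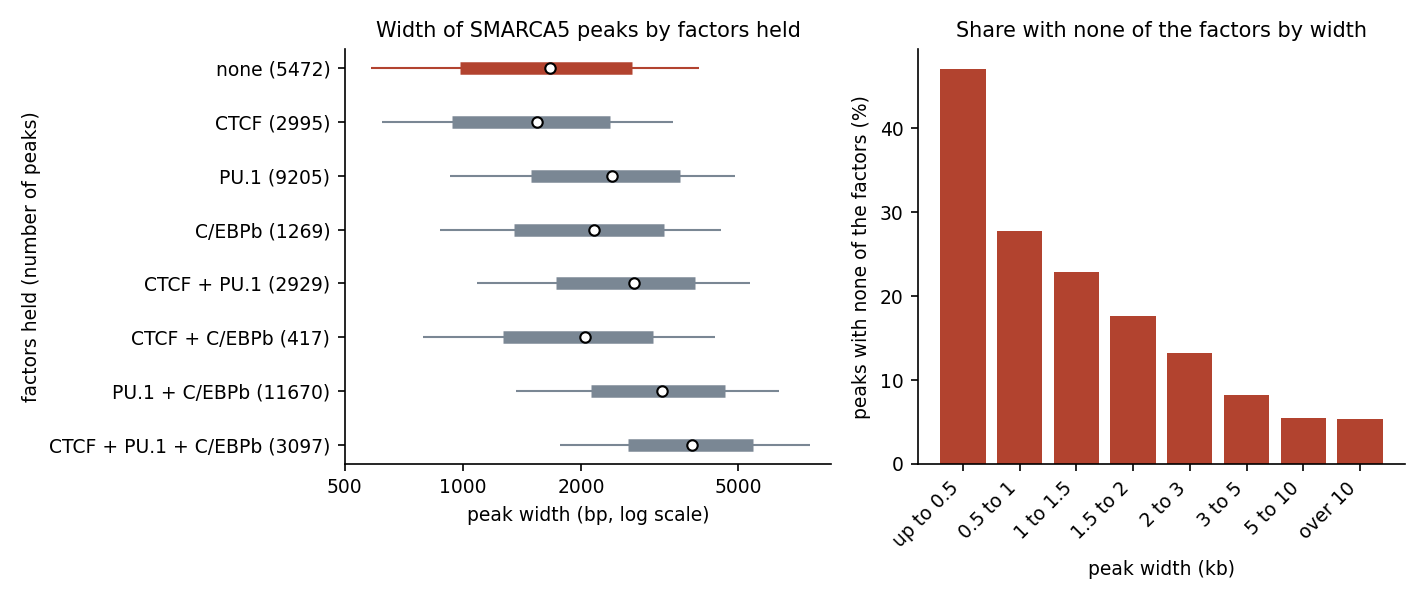
Left: width of SMARCA5 peaks (bp, log axis) by the factors they hold, with the median as an open point, the middle 50% as a thick bar and the 10th to 90th percentile as a thin line. Right: percent of SMARCA5 peaks in each width class (kb) that hold none of the factors, falling from 47.1% to 5.31%.

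The widest factor-free peak, chr5:90492796-90509204, spanned 16409 bp with a fold enrichment of 1.86, and C/EBPb was its nearest factor at 1764 bp. The second, chr2:44879696-44895333, spanned 15638 bp with a fold enrichment of 1.87, and its nearest CTCF peak was 652363 bp away while PU.1 lay at 7627 bp. The other 3 of the 5 widest were chr19:29236043-29249932 at 13890 bp, chr1:173465998-173479335 at 13338 bp and chr6:39076103-39089336 at 13234 bp. All 5 were below the factor-free median in fold enrichment, at 1.86 to 1.98, and in −log10 q, at 2.30 to 2.86.

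Fold enrichment, the authors' ratio of signal over local background for each peak, hardly separated the factor-free peaks from the rest. Their median was 2.09, with a middle range of 1.99 to 2.19 and extremes of 1.59 and 3.004. SMARCA5 peaks with a factor had a median of 2.08, and the factor-free median was higher on 14 chromosomes and lower on 6. The order of the medians turned under 4 of 9 alternatives. Among peaks 1000 to 2000 bp wide, for example, it was 2.09 for factor-free peaks and 2.11 for the others, and lower on 16 of 20 chromosomes. The difference was 0.00916 at all widths and −0.0178 at like width. The SD over chromosomes of the difference at all widths was 0.0179. Peaks with CTCF only had a higher median, 2.14, and the factor-free median lay below it on 18 of 20 chromosomes. Chromosome X stood apart in both sets, at 2.31 for factor-free peaks and 2.32 for the others, while the factor-free medians of the 19 autosomes lay between 2.03 and 2.15.

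The deposited −log10 q was where the factor-free peaks were low. Their median was 3.03, with a middle range of 2.55 to 3.78, against 4.00 for peaks with a factor, and it was lower on 20 of 20 chromosomes. The chromosome medians ran from 2.88 to 3.27 for factor-free peaks and from 3.60 to 4.12 for the others, so the ranges did not overlap. The difference stayed at like width: between 1000 and 2000 bp the medians were 3.003 and 3.85, lower on 20 of 20 chromosomes. Peaks with CTCF only, which were as narrow, had a median of 3.26, and the factor-free median lay below it on 20 of 20 chromosomes, or on 16 of 20 between 1000 and 2000 bp.

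Factor-free peaks were more frequent at the lower end of the SMARCA5 list, whose lowest −log10 q was 2.01, although most peaks there held a factor. They made up 41.0% of SMARCA5 peaks with a −log10 q between 2 and 2.5, and 5.08% of those above 5. Put the other way, 22.0% of factor-free peaks had a −log10 q between 2 and 2.5, against 5.48% of peaks with a factor. Above 5 stood 405 factor-free peaks, or 7.40% of them. Across the 5472 factor-free peaks, fold enrichment and −log10 q had a Spearman rho of 0.456, which describes 2 values of the same peak from the same libraries.

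Among factor-free peaks the highest fold enrichment was 3.004, at chr2:93043018-93045774, a peak of 2757 bp with a −log10 q of 8.11 and a CTCF peak 1554 bp away. The peak at chr7:43960705-43961861 followed at 2.98, with no factor peak within 29891 bp. The third, chr8:117040816-117042255, also had 2.98, and both its nearest factor peak, at 44959 bp, and its nearest SMARCA5 peak, at 74459 bp, were far off. The next in order were chr6:38350988-38352080 at 2.92 and chr15:25652388-25656054 at 2.91. All 5 had a −log10 q of 7.17 to 10.4 and lay at least 1554 bp from any factor. The highest −log10 q, 12.5, belonged to chr2:57070970-57073372, a peak of 2403 bp that lay 1821 bp from a C/EBPb peak and was singled out after its value was seen.

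The deposited values also carried a trace of how they were made. In every SMARCA5 peak the score, the fold enrichment and the −log10 q were whole steps, or multiples of 0.5 or 0.25 of a step, where a step is 1 for the score and 0.00001 for the others. A multiple of 0.25 that is not one of 0.5 cannot come from the mean of 2 values written in whole steps, and can come from the mean of 4. The mean of 4 can also fall on a whole or 0.5 step, so a peak without such a multiple may still be one. At least 1 of the 3 values had such 0.25-step decimals in 439 factor-free peaks, or 8.02%, and in 38.4% of SMARCA5 peaks with a factor. The factor-free share lay between 5.05% and 12.7% over the chromosomes and was lower on 20 of 20, against 30.2% to 42.5% for the others. It was 17.6% for peaks with CTCF only, 28.8% with PU.1 only and 59.5% with all 3 factors. At the edge of the rule it was 3.57% of the 56 factor-free peaks within 100 bp of a factor peak, and 9.43% of the 106 SMARCA5 peaks that shared at most 100 bp with one. That the values are means is inferred from these decimals alone, and which libraries or runs entered them is not given in the sources used here.

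Width and −log10 q moved with these decimals, and a cause was not tested. Factor-free peaks with 0.25-step decimals had a median width of 2697 bp and a median −log10 q of 3.56, against 1590 bp and 2.98 for those without. For peaks with a factor the values were 3569.5 bp and 4.30, against 2215.5 bp and 3.77. Without any peaks that had such decimals, factor-free minus other peaks gave −625.5 bp in width and −0.792 in −log10 q. Over all peaks these differences were −1059.5 bp and −0.967. Between 1000 and 2000 bp wide, the shares with such decimals were 5.40% of factor-free peaks and 21.3% of the others, and 15.8% of peaks with CTCF only. In peaks of up to 500 bp they were 0% and 1.10%. At a −log10 q between 2 and 2.5 they were 2.07% and 6.06%, and above 5 they were 13.1% and 46.2%. Between 5000 and 10000 bp wide they were 15.8% and 62.7%.

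**Figure D2:**
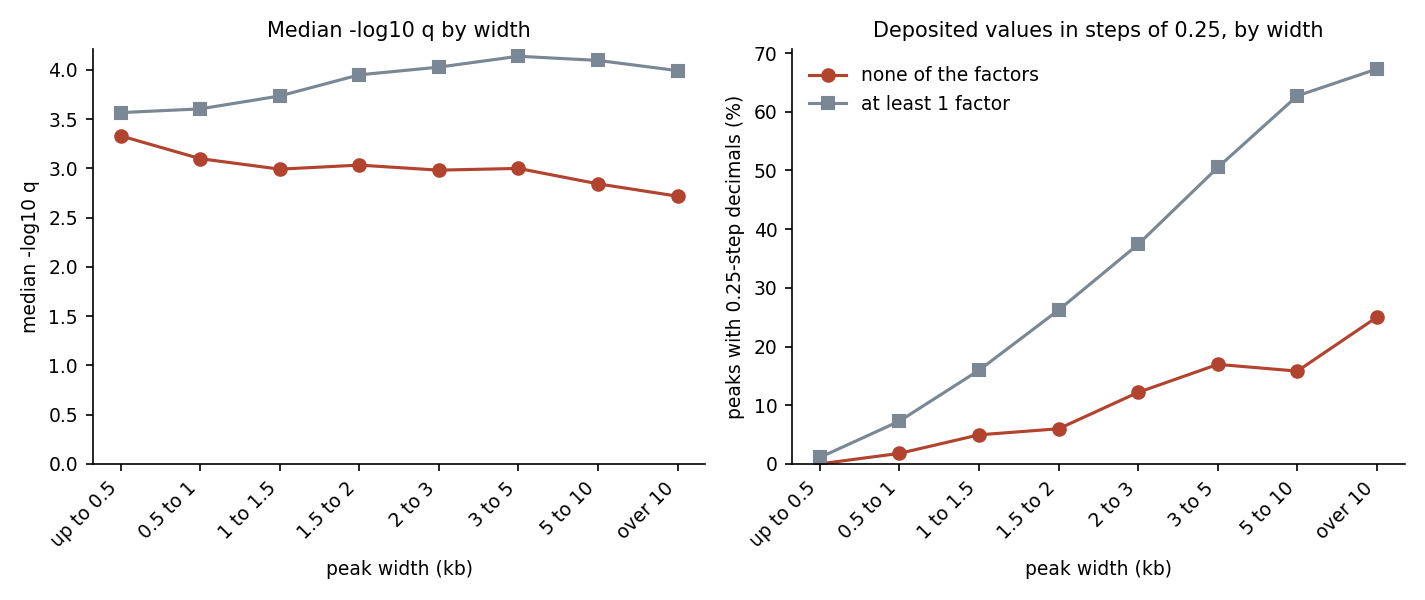
Left: median deposited −log10 q of SMARCA5 peaks by width class (kb), for factor-free peaks (circles) and peaks with at least 1 factor (squares). Right: percent of the same peaks with 0.25-step decimals; the factor-free points lie below the others in every width class of both plots.

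Most factor-free peaks had a factor peak close by. Measured from edge to edge, the nearest peak of any factor was at a median of 3071 bp, with a middle range of 1712 bp to 6459 bp, and the chromosome medians lay between 2641 bp and 3388 bp. Within 2000 bp a factor peak stood beside 31.7% of them, within 5000 bp beside 68.1%, within 10000 bp beside 84.9% and within 50000 bp beside 99.0%. Within 1000 bp it was only 7.97%. The distances are bounded below by the rule, which leaves out every peak at 0 bp.

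PU.1 was the nearest factor for 3537 factor-free peaks, or 64.6%, C/EBPb for 20.9% and CTCF for 14.4%. The PU.1 list was also the longest, with 67674 peaks beside 30895 for C/EBPb and 25280 for CTCF. The median distance was 3852 bp to PU.1, 8451 bp to C/EBPb and 21364 bp to CTCF, in the order of the lengths of the 3 lists. The chromosome medians did not overlap between the factors: 3289 to 4663 bp for PU.1, 6069 to 12390 bp for C/EBPb and 14930 to 40439 bp for CTCF. For comparison, SMARCA5 peaks with CTCF only lay at a median of 5785 bp from PU.1, farther than the factor-free peaks. Peaks with C/EBPb only lay nearer to PU.1, at 3239 bp. Peaks with PU.1 only lay 18759 bp from CTCF, so the factor-free peaks were no nearer to CTCF than these were.

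**Figure D3:**
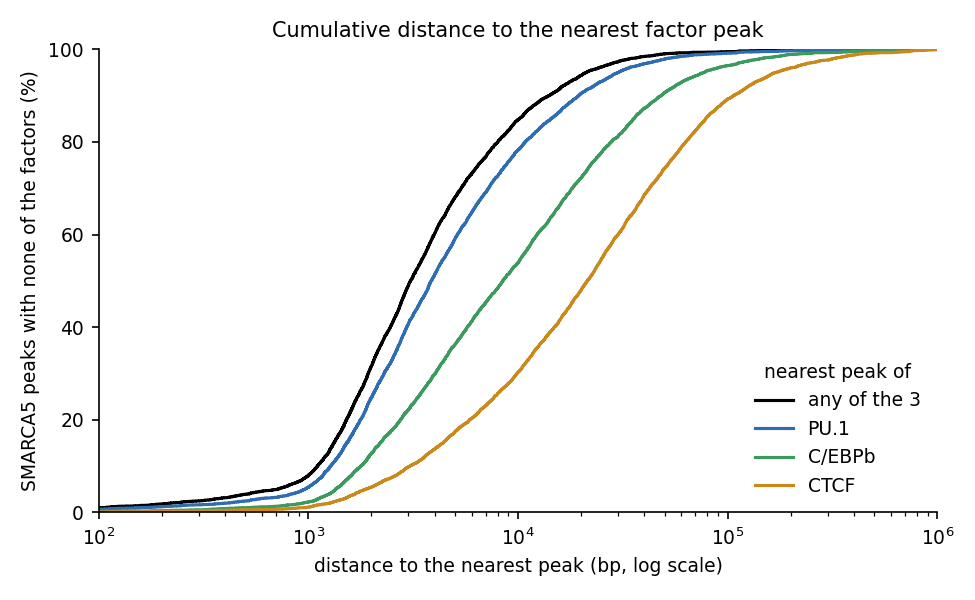
Cumulative percent of the 5472 factor-free SMARCA5 peaks (vertical axis) against the distance in bp (log axis) to the nearest peak of PU.1, C/EBPb, CTCF or any of the 3. The curves reach 50% near 3852, 8451, 21364 and 3071 bp, in that order, and points under 100 bp are not drawn.

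The factor peaks nearest to them touched a SMARCA5 peak, near or far from the factor-free one, more often than factor peaks at large. For 58.8% of the 5472 factor-free peaks the nearest PU.1 peak touched a SMARCA5 peak, against 49.5% of the whole PU.1 list. These nearest PU.1 peaks were 4881 different ones, and a peak nearest to several factor-free peaks was counted for each. For CTCF the shares were 58.4% and 39.9%, and for C/EBPb 66.0% and 59.6%. No such shares were computed for other SMARCA5 peaks, so they cannot be called particular to factor-free ones. In a window of 50 kb to either side of the midpoint, a factor-free peak had on average 6.61 PU.1, 3.36 C/EBPb and 1.78 CTCF peaks. Around peaks with C/EBPb only there were 6.93 PU.1 and 1.87 CTCF peaks, and around peaks with CTCF only 5.80 PU.1 and 2.74 C/EBPb peaks. Peaks with PU.1 only had 3.12 C/EBPb and 2.02 CTCF peaks. The window around a factor-free peak held 4.66 further SMARCA5 peaks, compared with 3.52 around peaks with CTCF only and 3.98 around peaks with PU.1 only. Peaks with C/EBPb only, at 4.50, and with PU.1 and C/EBPb, at 4.31, had nearly as many.

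A small group was remote from all 3 factors. More than 50 kb from any factor peak stood 53 factor-free peaks, or 0.969%, and 43 of these were also more than 50 kb from any other SMARCA5 peak. The most remote was chr2:81162856-81163663, a peak of 808 bp with its nearest factor, PU.1, at 692244 bp and a fold enrichment of 2.19. The next was chr5:51708686-51711396, at 434803 bp, with 2.56. A neighbouring pair on chromosome 5, chr5:69263187-69264170 and chr5:69265631-69267365, lay 1460 bp from each other and 414075 bp and 410880 bp from the nearest factor, which was CTCF. The fifth was chr15:49544083-49544758, at 365344 bp. Median fold enrichment was 2.05 for factor-free peaks within 1000 bp of a factor, 2.15 between 10 and 50 kb and 2.267 beyond 50 kb. The median −log10 q was 3.13 within 1000 bp, highest at 3.29 between 1000 and 2000 bp, 2.82 between 10 and 50 kb and 2.80 beyond. These bands were not recomputed without chromosome X, where the factor-free median fold enrichment was 2.31. Fold enrichment also rose with distance to the nearest SMARCA5 peak in both sets. It went from 2.05 within 2000 bp to 2.19 beyond 50 kb for factor-free peaks, and from 2.04 to 2.1998 for the others.

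Factor-free peaks lay close to other SMARCA5 peaks. The nearest one was at a median of 2899.5 bp, against 5592 bp for peaks with a factor, and the factor-free median was lower on 20 of 20 chromosomes. For peaks with CTCF only it was 8093 bp and for PU.1 only 5524 bp, both again higher on 20 of 20 chromosomes, whereas peaks with C/EBPb only had a like median of 2986 bp. The order turned for the 1749 factor-free peaks with no factor peak within 5000 bp, whose median was 10423 bp, 5569 bp above that of all other SMARCA5 peaks. Those others include the factor-free peaks that this requirement left out. A factor-holding SMARCA5 peak brings a factor peak with it, so the requirement bears on this distance directly. Within 2000 bp of another SMARCA5 peak stood 41.0% of factor-free peaks and 26.5% of the others.

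The gaps were widely spread, with a middle range of 1367 bp to 10920 bp for factor-free peaks. The most frequent gaps lay in a narrow range. Between 1000 and 1500 bp lay 1292 factor-free peaks, or 23.6%, compared with 14.1% of the others, and below 1000 bp only 6.60% and 4.25%. The rise at 1000 bp occurred in both sets: from 2.98% to 13.0% of factor-free peaks between the step of 750 to 1000 bp and the next, and from 1.96% to 7.82% of the others. When SMARCA5 peaks less than 2000 bp apart were joined, 1952 factor-free peaks, or 35.7%, became part of a region that held a factor. Joining below 1000 bp did this to 314, or 5.74%.

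**Figure D4:**
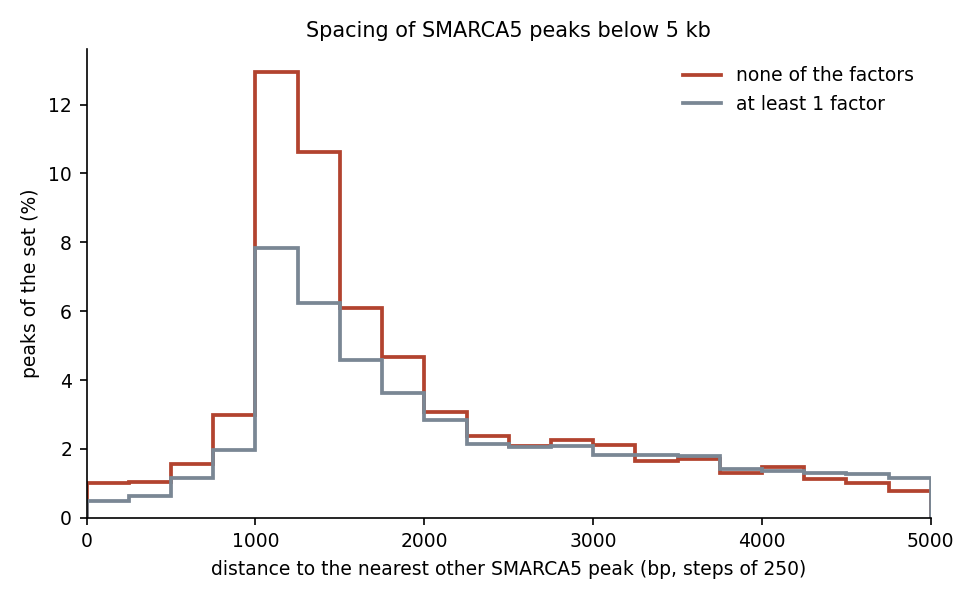
Percent of SMARCA5 peaks (vertical axis) by edge-to-edge distance to the nearest other SMARCA5 peak, in steps of 250 bp up to 5000 bp, for factor-free peaks and peaks with at least 1 factor. Both lines rise at 1000 bp, to 13.0% and 7.82%.

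The nearest SMARCA5 peak held a factor for 4442 factor-free peaks, or 81.2%. Its most frequent content was PU.1 with C/EBPb, at 32.6% of factor-free peaks, and PU.1 alone, at 25.3%, close to the 31.5% and 24.8% these classes take in the list. In these 4442 pairs the factor-free peak was the narrower one in 72.2% and had the lower −log10 q in 73.1%, but had the lower fold enrichment in 47.5%. The medians were 1643.5 bp beside 2834.5 bp in width and 3.09 beside 3.96 in −log10 q. Decimals in steps of 0.25 stood in 8.87% of the factor-free peaks and 41.2% of these neighbours. A factor-holding SMARCA5 peak stood within 2000 bp on 1 side of 29.9% of factor-free peaks and on both sides of 3.67%, against 19.6% and 1.65% of the other SMARCA5 peaks.

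Factor-free peaks also lay next to each other somewhat more than their share of the list. Another factor-free peak was the nearest SMARCA5 peak for 18.8% of them and for 15.2% of peaks with a factor, a difference of 3.61 percentage points seen on 16 of 20 chromosomes. It was −1.54 points when only the upper 50% of each factor's list defined the factor-free peaks. In the order along the chromosome, 18.0% were followed by another factor-free peak, which is 1.22 times their share of 14.8%. The same ratio was 1.19 for peaks with CTCF only, 1.20 for peaks with all 3 factors and 0.991 for PU.1 only. Without SMARCA5 peaks that had 0.25-step decimals, the share with a factor-free nearest peak was 26.3%, and the factor-free share of the list rose with it, to 20.5%. The share with a factor-free nearest peak did not follow distance to a factor in 1 direction. It was 17.7% within 1000 bp of a factor, 7.41% at 1 to 2 kb, 13.7% at 2 to 5 kb, 29.1% at 5 to 10 kb, 38.8% at 10 to 50 kb and 30.2% beyond. Distance to a factor is part of the rule, so these shares are a description.

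Most of the factor-free peaks stood alone in the order of SMARCA5 peaks: 3756, or 68.6%, had a factor-holding peak or the end of the list on both sides. Pairs held 1126, and 10.8% were in runs of 3 or more. Runs of the other classes were not counted, and such shares depend on how much of the list a class takes up. With gaps of at most 10 kb between them, 76.1% were alone, 16.8% in pairs and 7.07% in 107 groups of 3 or more. Peaks with PU.1 only, although more numerous, had 4.62% in such groups, and their largest group held 6. The largest factor-free group held 15. At gaps of at most 50 kb the order turned, with 30.4% for factor-free peaks and 33.7% for PU.1 only.

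The group of 15 spanned chr14:3730255-3831215. Its members were 813 to 6458 bp wide, with fold enrichments of 2.11 to 2.45 and a median −log10 q of 2.85. The span held 1 PU.1 peak, 0 CTCF and 0 C/EBPb peaks, and 1 further SMARCA5 peak. Of the 15, 13 formed the longest run of factor-free peaks in the list, and none had 0.25-step decimals. Another run of 6 lay just before it, at chr14:3580848-3691165. The first 1 Mb spanned by the lists on chromosome 14 held 23 factor-free and 8 factor-holding SMARCA5 peaks, the highest number of factor-free peaks in any 1 Mb bin. Without this 1 Mb, 6.74% of factor-free peaks were in groups of 3 or more.

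The other dense groups were smaller and lay on different chromosomes. The second held 8 peaks at chr1:84017815-84072227, from 409 to 13134 bp wide, with 1 PU.1 peak in the span. The third, 7 peaks at chr13:18044685-18085018, held no factor peak and no other SMARCA5 peak, and its fold enrichments were 2.03 to 2.37. The fourth, 6 peaks at chr7:74016194-74066940, held 2 PU.1 peaks. The fifth, 6 peaks at chr19:29236043-29294886, had no factor peak in its span of 58844 bp and included the third widest factor-free peak. That members of the 5 groups lie close together follows from how the groups were picked. Over the whole chromosomes, PU.1 peaks numbered 22.3 per Mb on chromosome 14, 25.3 on 1, 29.6 on 13, 26.9 on 7 and 36.4 on 19. Whether these spans held fewer factor peaks than others of their length was not tested.

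At the scale of 1 Mb, factor-free peaks were unevenly spread. Of 2552 bins, 38.0% held none, and the fullest held 23. The variance of the count per bin was 3.32 times its mean, a ratio that would be near 1 for independent placement at an even rate. It was 11.7 for SMARCA5 peaks with a factor, which are more numerous, 3.83 for PU.1 only and 1.94 for CTCF only, and such ratios grow with the mean count. Bins rich in factor-holding SMARCA5 peaks were also rich in factor-free ones: Spearman's rho was 0.781 and Pearson's r 0.656 over 2552 bins that share the same libraries and are not independent. The 558 bins with no factor-holding SMARCA5 peak held 28 factor-free peaks in all. In bins with over 0 and up to 5 factor-holding peaks, 16.6% of SMARCA5 peaks were factor-free, and with 6 to 10 it was 17.1%. It was 16.4% in bins with over 10 and up to 20, 14.6% with over 20 and up to 30, and 12.0% with more than 30. The count that sorts these bins also enters the share, so the shares are a description.

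By chromosome, the density ran from 1.83 factor-free peaks per Mb on chromosome 8 to 3.13 on chromosome 11 among the autosomes, and was 0.644 on X. Factor-holding SMARCA5 peaks were likewise most dense on chromosome 11, at 18.8 per Mb, and least on X, at 4.03. The factor-free share varied less, from 12.8% on chromosome 15 to 17.8% on chromosome 18, with 13.8% on X (SD over 20 chromosomes, 1.36 percentage points).

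**Figure D5:**
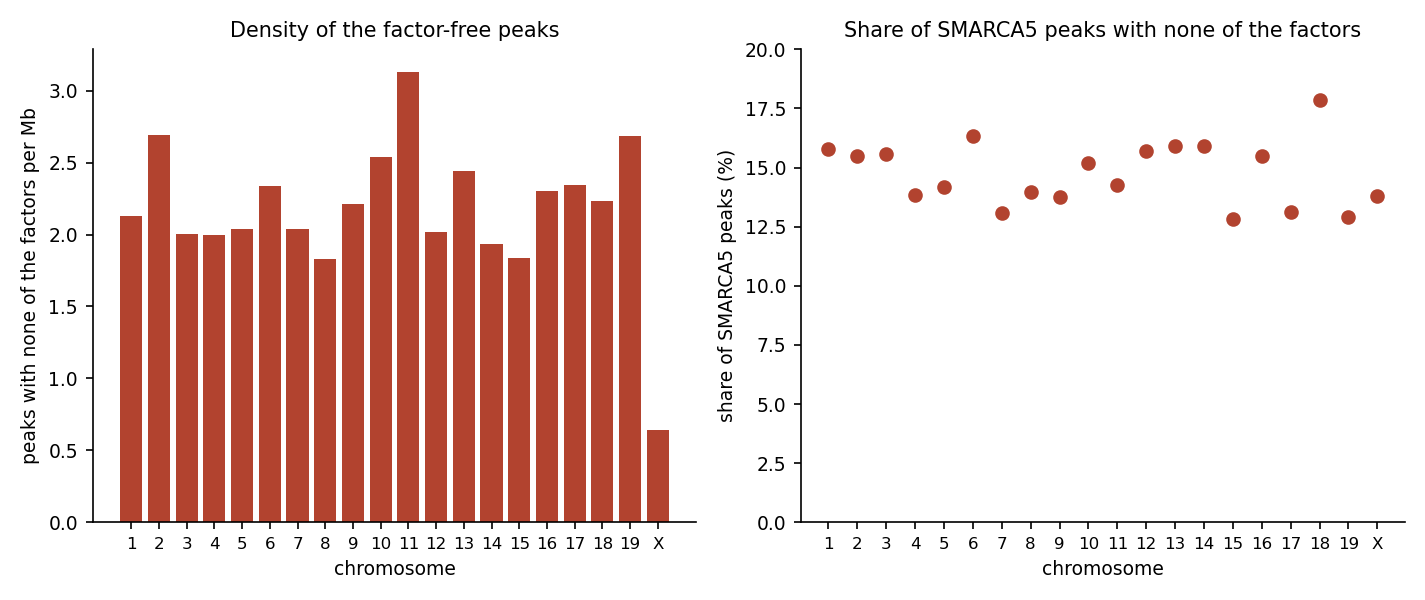
Left: factor-free SMARCA5 peaks per Mb of sequence spanned by the 4 lists, by chromosome. Right: the factor-free share of SMARCA5 peaks (%) on the same chromosomes; X is lowest in density, at 0.644 per Mb, and within the autosomal range in share, at 13.8%.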

How the data were processed

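Chromatin immunoprecipitation followed by sequencing was summarised by the authors as 1 consensus peak list per protein, on mm39. The submitters' processing notes name MACS2 2.2.7.1, deepTools 3.5.1, STAR 2.7.9a and Picard 2.27.4. What each did, how replicates were treated and what made a peak a consensus peak is not given in the sources used here. The deposited columns used are a score, a fold enrichment (a ratio over local background, column 7), a −log10 q (column 9) and, in the factor lists, a summit offset from the start. These are the authors' values per peak and were compared only within the SMARCA5 list. From the factor lists, fold enrichment and summits served only to define alternatives. The depth is unknown, and 0 value columns name a library.

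Positions were compared in pandas 2.3.3 and NumPy 2.4.6 under Python 3.11.15. Rank correlations used SciPy 1.17.1 and plots matplotlib 3.10.9. A shared position of 1 bp counted as overlap, and 17 SMARCA5 rows on Y, M and unplaced sequences were left out, 3 of which touched no factor peak. Distances run from edge to edge, and coordinates are printed from 1. Whether the deposited starts count from 0 or 1 could not be settled, but 0 factor-free peaks touched a factor peak, so the list is the same either way. Bins of 1 Mb run from the first position in any list on each chromosome. The functions for overlap, distance, runs and groups were tested on simulated data.

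The factor-free peaks, the classes and the summaries were chosen with earlier results of these data known. Named regions are the 5 with the highest fold enrichment, the 5 widest, the 5 farthest from a factor, the 5 densest groups (ties by shorter span) and those at the edge of the rule. The alternatives tried were stricter and looser overlap, shorter factor and SMARCA5 lists, a clear distance to factors, autosomes only, joined peaks, like widths, other bins and other gaps. Gene starts, gene lists and sequences were not analysed, because the gene tables at hand are on GRCm38.p6.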

Additional observations from a re-analysis of the deposited data

How the results depend on the processing

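Of 184 values recomputed under other settings, 116 moved by less than 1 SD over the 20 chromosomes (1.5 times for the count), 62 moved by more and 6 differences changed sign; the cause was not tested. No paired analysis was possible because each value stands for a whole consensus list, and for the same reason leaving out a library had no meaning. The alternatives that need gene starts were not run. Differences below are factor-free minus other SMARCA5 peaks.

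With the upper 50% of each factor's list, factor-free peaks numbered 13335 (36.0%), with a median width of 2094 bp (difference −730 bp), a median −log10 q of 3.44 (difference −0.639), a fold enrichment difference of −0.00284 and a median distance of 5348 bp to a factor. Of these, 36.9% had a factor-free nearest SMARCA5 peak (difference −1.54 points), 29.1% were in runs and 14.7% in groups of 3 or more, the variance over mean was 5.80, and 22.6% had 0.25-step decimals (difference −17.6 points). With the upper 50% of the SMARCA5 list, 2838 were factor-free, with a fold enrichment of 2.19 (difference −0.0119), a −log10 q of 3.37 (difference −1.15), a width difference of −820 bp, and distances of 3619.5 bp to a factor and 10679.5 bp to a SMARCA5 peak (difference −5226.5 bp). Groups of 3 or more then held 3.45%, the variance over mean was 2.24, and 5.95% had 0.25-step decimals (difference −24.0 points).

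Requiring the factor summit inside gave 16.2% and a factor distance of 2768 bp, an overlap of 50% of the shorter peak gave 2819 bp, and no factor within 1000 bp gave 3429.5 bp. Between 1000 and 2000 bp wide, the median width was 1440 bp (difference −85 bp), the fold enrichment difference −0.0178, and 5.40% had 0.25-step decimals (difference −15.9 points). Bins of 5 Mb gave a variance over mean of 4.72, gaps of at most 5 kb put 3.49% in groups of 3 or more, and gaps of at most 50 kb 30.4%.

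Some alternatives were chosen after seeing the data. Joining SMARCA5 peaks less than 2000 bp apart left 3369 (10.8%), with a width of 1846 bp (difference −1248 bp), distances of 4519 bp to a factor and 8204 bp to a SMARCA5 peak (difference −974.5 bp), 14.7% with a factor-free nearest peak, 2.23% in groups of 3 or more and a variance over mean of 2.26. Requiring no factor within 5000 bp left 1749 (4.72%), with a width of 1867 bp (difference −725 bp), a −log10 q of 2.81, a fold enrichment difference of 0.0465, distances of 9600 bp to a factor and 10423 bp to a SMARCA5 peak (difference 5569 bp), a nearest-peak difference of 17.8 points and a variance over mean of 2.12. Without SMARCA5 peaks that had 0.25-step decimals, 20.5% were factor-free, at a distance of 6380 bp to a SMARCA5 peak (difference −4779 bp), with 26.3% having a factor-free nearest peak and 17.6% in runs of 3 or more. The width difference was then −625.5 bp and that in fold enrichment −0.0147. Leaving out the first 1 Mb of chromosome 14 moved none of the 5 clustering values by more than 1 SD.

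Depth is unknown, so no limit of detection can be given for the factors at these peaks.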
